A study of Mus musculus with 9 samples.

Results

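The comparison described here is that of liver RNA from mice given triiodothyronine (T3) together with an siRNA, a small interfering RNA, directed at FoxO1 with liver RNA from mice given T3 alone. The members are the arrays whose titles name a hyperthyroid sample with or without FoxO1 knockdown, 6 of the 9 Illumina bead arrays of the series, 3 in each group. The 3 euthyroid arrays were not used. All animals were male C57BL/6 mice aged 8 weeks, and both groups had received T3 for 3 days. The siRNA was delivered to the liver by hydrodynamic injection into the tail vein. No injected control group is named in the labels, and they do not say whether the mice with T3 alone had an injection, so effects of the siRNA and of the injection cannot be told apart. Since the labels do not say that each array is a separate mouse, p-values here refer to the variation among these samples, which may be technical.

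FoxO1 is a forkhead transcription factor. In the fasted liver it enters the nucleus and raises genes of glucose production, and insulin signalling through Akt moves it back to the cytoplasm. T3 acts in liver through its nuclear receptors, of which THRB is the main one in hepatocytes, and is known for raising genes of lipid synthesis, mitochondrial fuel use and glucose production. An siRNA guides the cleavage of the messenger RNA that it matches. Hydrodynamic injection presses a large volume of fluid into the hepatic veins within seconds, carries nucleic acids mainly into hepatocytes and is known to injure part of them.

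Signals were background-corrected, quantile-normalized and put on the log2 scale, and every level below is a normalised log2 signal of 1 probe. Of 45281 probes, 17482 were detected on at least 3 of the 6 arrays, and they gave 9949 named genes, each read on its brightest detected probe. Median raw signals were 109 to 127 and 36.4% to 40.5% of the probes were detected on an array. The arrays of one group correlated at r = 0.984 to 0.989 over the detected probes and those of different groups at 0.961 to 0.974. siRNA array 3 lay farthest from the T3 arrays (r = 0.961 to 0.962, against 0.971 to 0.974 for siRNA arrays 1 and 2). Transcripts of abundant plasma proteins of the hepatocyte were near the top of the scale in both groups: transthyretin, Ttr, read 15.38, 15.32 and 15.38 on the T3 arrays and 15.34, 15.17 and 15.37 on the siRNA arrays. The brightest detected probe of the albumin gene, Alb, read only 9.21, 10.28 and 9.30 on the T3 arrays and 8.40, 8.68 and 8.52 on the siRNA arrays. Changes are log2 differences, siRNA group minus T3 group, with the standard error from limma (n = 3 arrays in each group). A gene is said to have risen or fallen where its Benjamini-Hochberg adjusted p over all detected probes was under 0.05.

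The targeted transcript was lower in every siRNA array. On its brighter probe Foxo1 read 9.26, 9.67 and 9.82 on the T3 arrays and 8.49, 8.60 and 8.49 on the siRNA arrays, 9.59 ± 0.29 (SD, n = 3) against 8.53 ± 0.06 (SD, n = 3). The highest siRNA array thus lay under the lowest T3 array. The fall was 2.08-fold (log2 change -1.06 ± 0.16, adjusted p = 0.0114), and the call held with any 1 array left out. A dimmer probe read 6.87, 7.20 and 6.86 with T3 and 6.51, 6.14 and 6.02 with the siRNA, again without overlap, and fell by 0.75 ± 0.17 (adjusted p = 0.0357). That call was lost without any 1 array except siRNA 1, at an adjusted p of up to 0.107. Of the other FoxO genes only Foxo3 was detected often enough to be tested, at 5.15, 6.93 and 6.73 on the T3 arrays and 5.86, 5.87 and 5.86 on the siRNA arrays, and its groups overlapped (log2 change -0.41 ± 0.43, adjusted p = 0.571). In whole liver a lower level can mean less RNA per cell or fewer cells with the transcript, and these cannot be told apart here, for Foxo1 or for any gene below.

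Of the 9949 genes 1205 passed the threshold (12.1%). Rises outnumbered falls, with 796 genes higher with the siRNA (8.00%) and 409 lower (4.11%). Over the 17482 probes the shares were 6.61% higher and 4.34% lower. They were also larger: the median change was 0.90 among the rises and -0.75 among the falls, and 320 genes rose and 100 fell at least 2-fold. The median of all genes was 0.01. The 3 siRNA arrays lay entirely above the 3 T3 arrays for 21.4% of the genes and entirely below for 18.1%. List counts below are to be read beside these shares and, for calls, beside 8.00% higher and 4.11% lower. Scaling each array by its median in place of quantile normalization moved the median of all genes up by 0.17, and 88.9% of the called genes were then higher, against 66.1% in the counts above. With T3 1, T3 2, T3 3, siRNA 1, siRNA 2 and siRNA 3 left out in turn, 390, 546, 382, 431, 373 and 274 genes were higher and 179, 200, 106, 213, 173 and 116 lower, and 288 calls (214 higher, 74 lower) were made in all 6 of these fits. Counts with 1 array left out are given below in that order. Of the risen genes, 106 were not detected on any T3 array. They passed the detection filter through the siRNA arrays alone, where they read high, so the filter itself favoured their rise. List counts and medians below include such genes. The probe of such a gene was not tested in the 3 fits that leave out an siRNA array, because too few arrays then detected it. The gene was tested there only where another of its probes was detected on enough arrays.

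**Figure D1:**
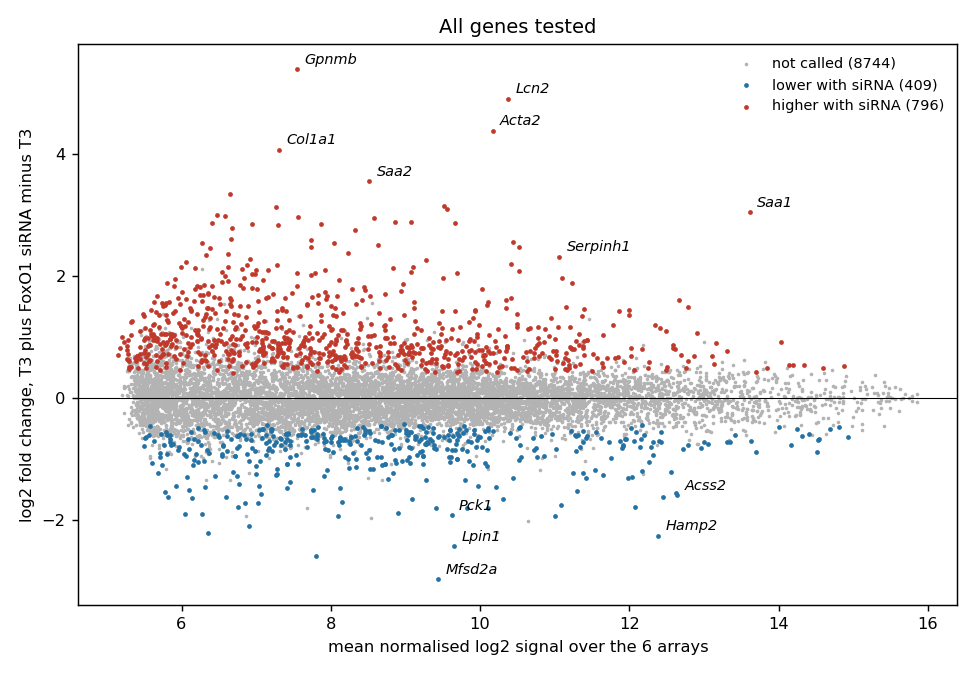
Log2 fold change of each of the 9949 genes (siRNA group minus T3 group, vertical axis) against its mean normalised log2 signal over the 6 arrays (horizontal axis). Red points are the 796 genes that rose, blue points the 409 that fell and grey points the genes not called, and the largest rises reach higher than the largest falls reach down.

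Gpnmb, a glycoprotein of lipid-laden macrophages, read 4.62, 5.26 and 4.67 on the T3 arrays and 9.36, 9.88 and 11.50 on the siRNA arrays. It was not detected on any T3 array and was at least 25.4-fold higher (log2 change 5.39 ± 0.51, adjusted p = 0.00328). For such a gene the bound sets the siRNA mean against the lowest signal of a detected probe on each T3 array, or against the gene's own signal where that was higher. Emp1, an epithelial membrane protein of injured tissue, read 7.00, 7.05 and 7.25 on the T3 arrays and 9.78, 10.08 and 10.28 on the siRNA arrays, a 7.73-fold rise (log2 change 2.95 ± 0.16, adjusted p = 0.000829) with a narrow spread in both groups. The protease inhibitor Spink1 rose 7.31-fold (log2 change 2.87 ± 0.48, adjusted p = 0.0148), and its siRNA arrays ranged from 9.92 to 12.01. Slpi, another secreted protease inhibitor, rose 7.39-fold (log2 change 2.88 ± 0.51, adjusted p = 0.0172), and the ubiquitin-like modifier Ubd, detected on 2 T3 arrays, 7.18-fold (log2 change 2.84 ± 0.61, adjusted p = 0.0302). Wfdc3, a protein with whey acidic protein domains, was at least 5.28-fold higher. The 20 largest rises also hold Ly6d, Gsta1, Gsta2 and genes of the groups below. The call of Emp1 held with any 1 array left out. Gpnmb and Wfdc3 held their calls in the fits that tested them. Spink1 lost its call without siRNA 3, Slpi without T3 2, and Ubd without T3 1, T3 3, siRNA 1 or siRNA 3, at an adjusted p of up to 0.0827.

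Among the falls, Mfsd2a, a transporter of lysophosphatidylcholine, read 10.24, 11.39 and 11.16 on the T3 arrays and 6.83, 7.81 and 9.23 on the siRNA arrays. Among called, named genes without overlap and detected on all T3 arrays, Mfsd2a had the largest fall, 7.84-fold (log2 change -2.97 ± 0.59, adjusted p = 0.0242). Its siRNA arrays differed from each other by more than 2 log2 units while still lying below the T3 arrays. Rdh16, a retinol dehydrogenase, fell 3.50-fold (log2 change -1.81 ± 0.18, adjusted p = 0.00371), with no overlap between the groups. Angptl6, a secreted angiopoietin-like protein, fell 3.67-fold (log2 change -1.88 ± 0.21, adjusted p = 0.00485). Pnpla5, a lipase of the patatin-like family, fell 3.43-fold (log2 change -1.78 ± 0.16, adjusted p = 0.00244), and Chrna4, a nicotinic receptor subunit, 3.30-fold (log2 change -1.72 ± 0.28, adjusted p = 0.0135). Unc79, Rfx4, Wfdc1 and Ugt1a5 also stood among the 20 largest falls, at -2.21, -1.90, -1.72 and -1.94 on the log2 scale. Unc79 and Rfx4 were detected on 1 siRNA array each, so that their values rest in part on readings at background. The calls of Rdh16, Angptl6, Pnpla5, Chrna4 and Rfx4 held with any 1 array left out. Unc79 lost its call without siRNA 3, Mfsd2a without T3 2, T3 3 or siRNA 2, Wfdc1 without T3 1, T3 3 or siRNA 1, and Ugt1a5 without T3 2, T3 3 or siRNA 3, at an adjusted p of up to 0.0719.

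Known FoxO targets were lower in part. Of 29 tested genes on a list of FoxO targets, 5 were lower and 0 higher with the siRNA, and the list median was -0.35, beside 0.01 over all genes. Pck1, the phosphoenolpyruvate carboxykinase that commits carbon to gluconeogenesis, read 10.20, 11.09 and 10.44 on the T3 arrays and 8.42, 8.71 and 8.84 on the siRNA arrays. The groups stood more than 1 log2 unit apart, a 3.79-fold fall (log2 change -1.92 ± 0.24, adjusted p = 0.00613), and a second probe gave -1.71. G6pc, the glucose-6-phosphatase of the last step of glucose release, read 13.25, 13.22 and 13.82 on the T3 arrays and 12.76, 12.64 and 12.64 on the siRNA arrays, with the 3 siRNA arrays close together just under the lowest T3 array (log2 change -0.75 ± 0.18, adjusted p = 0.0411). Angptl4, a secreted inhibitor of lipoprotein lipase, read 13.22, 12.99 and 13.27 on the T3 arrays and 12.44, 11.73 and 11.69 on the siRNA arrays, lowest on siRNA arrays 2 and 3 (log2 change -1.21 ± 0.22, adjusted p = 0.0178). Ccng2, a cyclin that holds back the cell cycle, fell 1.99-fold (log2 change -0.99 ± 0.17, adjusted p = 0.0152), and Pdk4, which inhibits the pyruvate dehydrogenase complex, 1.76-fold (log2 change -0.82 ± 0.20, adjusted p = 0.0467).

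Igfbp1, an insulin-like growth factor binding protein and a classic FoxO1 target, had the largest change of the list without passing the threshold. It read 7.07, 7.56 and 8.86 on the T3 arrays and 5.79, 6.65 and 5.25 on the siRNA arrays, so the groups did not overlap but each spread over more than 1 log2 unit (log2 change -1.94 ± 0.51, adjusted p = 0.0528). The siRNA arrays lay entirely below the T3 arrays for 14 of the 29 genes and entirely above for 3, Apoc3, Eif4ebp1 and Sesn1. Ppargc1a, the coactivator of gluconeogenic genes, was among the 14 without a call (log2 change -0.76 ± 0.22, adjusted p = 0.0733). Irs2, the insulin receptor substrate, Cited2 and the superoxide dismutase Sod2 gave -0.28, 0.00 and -0.04, with no call. The count of 5 was 2, 3, 2, 5, 1 and 2 with 1 array left out. Without siRNA 3 the list median was -0.22. The call of Pck1 held with any 1 array left out. Ccng2 lost its call without siRNA 2 or siRNA 3, Angptl4 without T3 1, T3 3, siRNA 2 or siRNA 3, Pdk4 without any 1 array except siRNA 3, and G6pc without any 1 array, at an adjusted p of up to 0.127.

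FoxO proteins recognise the consensus letters GTAAACA and also the variant CAAAACA of insulin response sequences. The promoters of genes from the list were read for both. In RefSeq windows of 300 bases on GRCm38.p6, from 250 before to 50 after the start, CAAAACA on either strand stood in 4 of the 23 listed targets with a window (17.4%), Ccng2, G6pc, Igfbp1 and Irs2. The share was 5.65% over all tested genes with a window, 5.71% over those that fell and 4.60% over those that rose. GTAAACA on either strand stood in 3 of the 23, Bcl2l11, Sesn1 and Txnip, beside 3.25% of all tested genes with a window, 5.11% of those that fell and 1.90% of those that rose. The windows of 3 of the 4 are printed 5′ to 3′ because G6pc and Ccng2 fell and Igfbp1 had the largest change of the list, and capitals mark CAAAACA or its reverse complement.
G6pc promoter, chr11:101367466-101367765, plus strand: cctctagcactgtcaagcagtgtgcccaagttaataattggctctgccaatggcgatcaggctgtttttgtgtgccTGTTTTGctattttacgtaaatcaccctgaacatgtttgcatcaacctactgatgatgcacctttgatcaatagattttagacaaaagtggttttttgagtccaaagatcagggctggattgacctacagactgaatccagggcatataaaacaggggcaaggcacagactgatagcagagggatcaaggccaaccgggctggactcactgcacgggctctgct
Igfbp1 promoter, chr11:7197537-7197836, plus strand: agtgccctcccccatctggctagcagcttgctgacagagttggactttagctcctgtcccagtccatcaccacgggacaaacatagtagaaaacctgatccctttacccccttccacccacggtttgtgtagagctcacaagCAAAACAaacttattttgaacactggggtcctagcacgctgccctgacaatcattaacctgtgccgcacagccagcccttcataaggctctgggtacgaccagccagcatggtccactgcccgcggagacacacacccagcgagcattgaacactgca
Ccng2 promoter, chr5:93267323-93267622, plus strand: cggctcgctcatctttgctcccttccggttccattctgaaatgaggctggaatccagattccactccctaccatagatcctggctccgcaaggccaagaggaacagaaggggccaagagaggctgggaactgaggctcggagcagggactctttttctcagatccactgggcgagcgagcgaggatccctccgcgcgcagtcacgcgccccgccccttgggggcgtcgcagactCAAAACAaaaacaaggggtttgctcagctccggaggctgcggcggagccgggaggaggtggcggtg
The first base of this motif lay 174 bases before the start in G6pc, 108 before it in Igfbp1 and 16 before it in Ccng2. Neither motif was in the windows of Pck1 and Pdk4, which says nothing of other FoxO sites. A match describes the window and is not a measured binding site. The list holds known FoxO targets and was chosen with earlier results known, so its shares describe it and test nothing.

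In the wider set of glucose genes 13.6% fell, beside 4.11% of all genes. Of 22 tested genes of gluconeogenesis and glycolysis 3 fell, the Pck1, G6pc and Pdk4 of the list above, and 1 rose, with a list median of -0.22. Without T3 2 the list median was -0.11. The rise was that of Pkm, the pyruvate kinase of tissues other than hepatocytes, at 9.07, 9.22 and 9.08 on the T3 arrays and 9.86, 10.25 and 10.21 on the siRNA arrays (log2 change 0.98 ± 0.14, adjusted p = 0.00958). In glycogen metabolism 2 of 12 fell. Ppp1r3g, a glycogen-targeting subunit of protein phosphatase 1, read 7.14, 6.75 and 7.07 on the T3 arrays and 4.98, 5.19 and 5.11 on the siRNA arrays, was not detected on any siRNA array and was at least 2.94-fold lower (log2 change -1.89 ± 0.14, adjusted p = 0.00163). Gys2, the liver glycogen synthase, fell 1.51-fold (log2 change -0.60 ± 0.13, adjusted p = 0.0295), and its second probe gave -0.63. Of 17 insulin signalling genes 1 changed: Grb10, an adaptor that restrains the insulin receptor, read 8.00, 8.02 and 7.83 on the T3 arrays and 9.44, 9.08 and 9.52 on the siRNA arrays, a 2.63-fold rise (log2 change 1.39 ± 0.15, adjusted p = 0.00442) that its second probe did not share (0.17). Igfbp3, a circulating carrier of insulin-like growth factors, fell 2.51-fold (log2 change -1.33 ± 0.21, adjusted p = 0.0135). The calls of Pkm, Grb10 and Igfbp3 held with any 1 array left out. Ppp1r3g held its call in the fits that tested it. Gys2 lost its call without any 1 array except siRNA 2, at an adjusted p of up to 0.0929.

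Of 20 tested genes of fatty acid synthesis 9 fell, 0 rose and 11 were not called, the siRNA arrays lay below the T3 arrays for 15, and the list median was -0.58. Acss2, which makes acetyl-CoA from acetate, read 13.03, 13.58 and 13.71 on the T3 arrays and 12.06, 11.90 and 11.59 on the siRNA arrays, a 3.01-fold fall (log2 change -1.59 ± 0.21, adjusted p = 0.00739). Fasn, the fatty acid synthase, read 7.74, 8.20 and 8.50 on the T3 arrays and 6.75, 6.85 and 6.72 on the siRNA arrays, with little spread among the siRNA arrays (log2 change -1.37 ± 0.20, adjusted p = 0.00931). Pnpla3, a lipid droplet hydrolase raised by feeding, fell 2.79-fold (log2 change -1.48 ± 0.22, adjusted p = 0.0111), and Insig2, which holds the sterol regulatory element binding proteins in the endoplasmic reticulum, 2.07-fold (log2 change -1.05 ± 0.17, adjusted p = 0.0127). Me1, the malic enzyme that supplies NADPH, read 11.60, 12.08 and 11.90 on the T3 arrays and 11.02, 10.60 and 10.29 on the siRNA arrays, lowest on siRNA array 3 (log2 change -1.23 ± 0.21, adjusted p = 0.0163). The mitochondrial citrate carrier Slc25a1, the desaturase Fads1, the acetyl-CoA carboxylase Acacb and the elongase Elovl5 gave -0.62, -0.59, -0.83 and -0.62. The count of 9 was 6, 7, 4, 7, 5 and 5 with 1 array left out. The calls of Acss2, Fasn, Pnpla3 and Insig2 held with any 1 array left out. Me1 lost its call without T3 3 or siRNA 2, Slc25a1 without T3 1, T3 3, siRNA 2 or siRNA 3, Fads1 without any 1 array except T3 2, and Acacb without any 1 array except siRNA 1. Elovl5 lost its call without any 1 array except T3 1, at an adjusted p of up to 0.118.

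Of 17 tested genes of cholesterol synthesis 9 fell, 0 rose and 8 were not called, with a list median of -0.53. Tm7sf2, the sterol reductase that acts after lanosterol demethylation, read 10.33, 10.55 and 10.54 on the T3 arrays and 9.08, 9.46 and 8.85 on the siRNA arrays, a 2.54-fold fall (log2 change -1.34 ± 0.17, adjusted p = 0.00666). Idi1, the isopentenyl diphosphate isomerase, read 9.00, 9.72 and 9.61 on the T3 arrays and 8.32, 8.34 and 7.99 on the siRNA arrays (log2 change -1.23 ± 0.21, adjusted p = 0.0160). Dhcr7, the final reductase, fell by 0.94 ± 0.16 on the log2 scale (adjusted p = 0.0148), Pmvk of the mevalonate pathway by 0.95 ± 0.18 (adjusted p = 0.0225) and Nsdhl, a demethylating dehydrogenase, by 1.01 ± 0.23 (adjusted p = 0.0355). Sc5d, Lss, Fdps and Cyp51 fell by 0.53 to 0.72, although the dimmer probe of Fdps gave 0.69. The count of 9 was 4, 6, 1, 3, 4 and 2 with 1 array left out. The call of Tm7sf2 held with any 1 array left out. Dhcr7 lost its call without T3 3, Idi1 without T3 3 or siRNA 3, Nsdhl without T3 1, T3 3, siRNA 1 or siRNA 3, and Pmvk and Fdps without any 1 array except T3 2. Lss lost its call without any 1 array except T3 1, and Sc5d and Cyp51 without any 1 array, at an adjusted p of up to 0.122.

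Some genes of glyceride assembly and of the lipid droplet fell. Lpin1, a phosphatidate phosphatase that makes diacylglycerol and also a coactivator of fat oxidation genes, read 10.52, 10.81 and 11.28 on the T3 arrays and 8.81, 8.87 and 7.64 on the siRNA arrays, lowest on siRNA array 3, a 5.39-fold fall (log2 change -2.43 ± 0.35, adjusted p = 0.00970) with -2.17 on its second probe. Lpin2, its liver paralogue, fell 3.48-fold (log2 change -1.80 ± 0.28, adjusted p = 0.0117), though 2 dimmer probes gave -1.01 and -0.19. With Mfsd2a these were the 3 falls among 21 tested genes of triglyceride and phospholipid synthesis, where 0 rose and the median was -0.29. Of 14 lipid droplet genes 4 fell, 0 rose and 10 were not called. Plin2, the main coat protein of hepatocyte droplets, read 12.30, 12.33 and 12.32 on the T3 arrays and 11.51, 11.48 and 11.49 on the siRNA arrays, so that both groups varied by under 0.05 and the fall of 1.77-fold stood clear of it (log2 change -0.82 ± 0.10, adjusted p = 0.00604). Plin4 and Plin5, other droplet coat proteins, and Mgll, the monoglyceride lipase, gave -1.07, -0.59 and -0.60. The droplet count of 4 was 1, 2, 1, 3, 2 and 1 with 1 array left out. The calls of Lpin1, Lpin2 and Plin2 held with any 1 array left out. Plin4 lost its call without T3 1, T3 3 or siRNA 3, and Plin5 and Mgll without any 1 array, at an adjusted p of up to 0.0956.

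All 23 tested genes of a list of targets of PPAR alpha, the fatty acid receptor of the fasted liver, and of peroxisomes had a negative change. Of these 7 fell, 18 had siRNA arrays entirely below the T3 arrays, and the median was -0.63. Cyp4a14, a fatty acid omega-hydroxylase, read 13.27, 13.32 and 13.62 on the T3 arrays and 11.80, 11.86 and 11.91 on the siRNA arrays, a 2.92-fold fall (log2 change -1.55 ± 0.13, adjusted p = 0.00219), and its family member Cyp4a31 fell 3.50-fold (log2 change -1.81 ± 0.19, adjusted p = 0.00399). The probes of these near copies may share signal. Acot1, a cytosolic acyl-CoA thioesterase, read 12.06, 11.88 and 12.25 on the T3 arrays and 10.77, 10.03 and 10.81 on the siRNA arrays (log2 change -1.53 ± 0.23, adjusted p = 0.0108). The peroxisomal thioesterase Acot3 read 9.45, 9.57 and 8.24 on the T3 arrays and 6.16, 5.88 and 7.48 on the siRNA arrays, with T3 3 and siRNA 3 less than 1 log2 unit apart (log2 change -2.58 ± 0.49, adjusted p = 0.0222). Acaa1b, a peroxisomal thiolase, and Pex11a, which helps peroxisomes divide, gave -0.63 and -0.76, and the receptor gene Ppara itself gave -0.92 ± 0.25 without a call (adjusted p = 0.0556). The count of 7 was 6, 4, 4, 5, 4 and 5 with 1 array left out. Without siRNA 3 the list median was -0.41. In that fit 22 of the 23 changes were negative. The calls of Cyp4a14, Cyp4a31 and Acot1 held with any 1 array left out. Acaa1b lost its call without T3 3, siRNA 2 or siRNA 3, Acot3 without T3 1, T3 2, siRNA 1 or siRNA 2, and Pex11a without T3 2, T3 3, siRNA 2 or siRNA 3, at an adjusted p of up to 0.106.

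In mitochondrial fat oxidation 10% of the tested genes fell, beside 4.11% of all genes. Of 20 tested genes of fatty acid oxidation and ketogenesis 2 fell, the carnitine transporter Slc22a5 (log2 change -0.96 ± 0.21, adjusted p = 0.0307) and the isomerase Eci2 (log2 change -0.66 ± 0.16, adjusted p = 0.0401), and the list median was -0.17. Without siRNA 1 the list median was -0.25. The respiratory chain list had a median of -0.22 and 3 falls of 23 (13%), Ndufb5, Sdhd and Sdhb, by 0.44 to 0.57 on the log2 scale. The tricarboxylic acid cycle list held no call by limma among 15 genes, 6 with an unadjusted p under 0.05, and had a median of -0.26. Slc22a5 lost its call without T3 3, siRNA 1, siRNA 2 or siRNA 3, Eci2 without any 1 array except siRNA 1, Ndufb5 without any 1 array except T3 1, and Sdhd and Sdhb without any 1 array, at an adjusted p of up to 0.132.

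In bile acid synthesis 3 of 12 tested genes fell and 0 rose (median -0.35). Cyp27a1, the sterol 27-hydroxylase of the alternative route, read 14.04, 14.22 and 14.13 on the T3 arrays and 13.35, 13.32 and 13.10 on the siRNA arrays, a 1.83-fold fall that its 2 other probes shared (log2 change -0.87 ± 0.12, adjusted p = 0.00918). Akr1d1, the 5-beta-reductase, detected on 2 siRNA arrays, and Klb, the hepatic coreceptor for FGF15, fell 2.13-fold (log2 change -1.09 ± 0.14, adjusted p = 0.00626) and 2.08-fold (log2 change -1.06 ± 0.15, adjusted p = 0.00988). The count of 3 was also 3 in each fit with 1 array left out. Cyp7a1, the rate-limiting enzyme of the classical route, read 11.72, 12.17 and 11.34 on the T3 arrays and 11.91, 12.87 and 13.09 on the siRNA arrays, with overlapping groups (log2 change 0.88 ± 0.34, adjusted p = 0.137). Among 14 transporters of bile acids and sterols, the uptake transporters Slco1a4 and Slc10a1 and the sterol exporter Abcg8 fell, with log2 changes of -1.47, -0.65 and -1.29, and the basolateral exporter Abcc3 and the macrophage cholesterol exporter Abcg1 rose, with 0.82 and 0.73. The calls of Cyp27a1, Akr1d1, Klb and Slco1a4 held with any 1 array left out. Abcg8 lost its call without T3 1, T3 2, T3 3 or siRNA 1, Abcc3 without T3 1, T3 3, siRNA 1 or siRNA 3, Slc10a1 without any 1 array except T3 3, and Abcg1 without any 1 array except T3 2, at an adjusted p of up to 0.112.

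The thyroid hormone targets that fell were genes of glucose, lipid and sterol metabolism. Of 23 tested targets 6 fell and 0 rose (median -0.51), namely Pck1, G6pc, Pdk4, Fasn, Me1 and Abcg8. Dio1, the deiodinase that is a standard marker of T3 action in liver, read 13.37, 13.62 and 13.53 on the T3 arrays and 13.20, 13.37 and 13.11 on the siRNA arrays, so that the groups met at 13.37, with no call (log2 change -0.28 ± 0.13, adjusted p = 0.194). Thrsp, a T3-responsive lipogenic protein, read 13.08, 13.41 and 13.33 on the T3 arrays and 12.16, 12.95 and 12.49 on the siRNA arrays (log2 change -0.74 ± 0.21, adjusted p = 0.0682), and Klf9, a T3-induced repressor, 13.30, 13.18 and 13.43 on the T3 arrays and 12.91, 12.71 and 12.01 on the siRNA arrays (log2 change -0.76 ± 0.23, adjusted p = 0.0816), likewise without a call. Hr, a corepressor induced by T3, read 6.03, 6.78 and 6.81 on the T3 arrays and 7.32, 7.17 and 7.76 on the siRNA arrays (log2 change 0.88 ± 0.25, adjusted p = 0.0687). Of 11 genes of hormone transport and action 2 rose: Serpina7, which encodes thyroxine-binding globulin, read 6.94, 6.91 and 6.43 on the T3 arrays and 9.11, 8.07 and 9.24 on the siRNA arrays, a 4.13-fold rise (log2 change 2.05 ± 0.32, adjusted p = 0.0119) with 0.73 on its second probe, and Crym, a cytosolic T3-binding protein detected on 1 T3 array, rose 1.89-fold (log2 change 0.92 ± 0.18, adjusted p = 0.0246). The count of 6 was 3, 3, 2, 4, 4 and 5 with 1 array left out. Without siRNA 3 the list median was -0.34. The call of Serpina7 held with any 1 array left out. Crym lost its call without T3 1, T3 3, siRNA 2 or siRNA 3, at an adjusted p of up to 0.0716.

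Enzymes of amino acid breakdown and of drug oxidation fell in part. Of 36 genes of amino acid catabolism and the urea cycle 12 fell and 0 rose (median -0.41). Prodh, the proline dehydrogenase, read 12.69, 12.90 and 12.78 on the T3 arrays and 11.75, 11.98 and 11.84 on the siRNA arrays (log2 change -0.93 ± 0.12, adjusted p = 0.00701), and Hpd of tyrosine breakdown 12.81, 12.49 and 12.75 on the T3 arrays and 11.70, 12.08 and 11.86 on the siRNA arrays (log2 change -0.80 ± 0.15, adjusted p = 0.0199). Haao of tryptophan breakdown and the citrin gene Slc25a13 gave -0.72 and -0.93, and Arg1, the arginase of the urea cycle, -0.50. The count of 12 was 4, 5, 2, 4, 3 and 2 with 1 array left out, and 3 under median scaling. Of 40 cytochromes P450 7 fell and 0 rose (median -0.41), among them Cyp2c38, detected on 2 siRNA arrays (log2 change -1.62 ± 0.22, adjusted p = 0.00854), the vitamin D 25-hydroxylase Cyp2r1, which was not detected with the siRNA and was at least 1.65-fold lower, and the steroid hydroxylase Cyp17a1 (log2 change -1.93 ± 0.49, adjusted p = 0.0481). That count of 7 was 7, 3, 2, 4, 5 and 3 with 1 array left out. Without T3 1 the list median was -0.27. The calls of Prodh, Slc25a13 and Cyp2c38 held with any 1 array left out. Cyp2r1 held its call in the fits that tested it. Hpd lost its call without T3 1, T3 3, siRNA 1 or siRNA 3, Haao without T3 1, T3 3, siRNA 2 or siRNA 3, Cyp17a1 without any 1 array except T3 1, and Arg1 without any 1 array, at an adjusted p of up to 0.131.

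Carboxylesterases, which hydrolyse esters and drugs in the endoplasmic reticulum, gave 4 of the 5 falls in a list of 26 esterases and flavin monooxygenases. Ces1f read 13.37, 12.93 and 12.61 on the T3 arrays and 10.99, 11.26 and 11.30 on the siRNA arrays, a 3.45-fold fall (log2 change -1.79 ± 0.20, adjusted p = 0.00505), Ces1e fell 3.14-fold (log2 change -1.65 ± 0.21, adjusted p = 0.00645), and Ces2a, detected on 2 siRNA arrays, and Ces1d gave -1.45 and -0.88. The count of 5 was 3, 4, 4, 3, 5 and 2 with 1 array left out. Among 39 conjugating enzymes 6 fell and 2 rose, and the count of 6 was 3, 3, 1, 3, 5 and 2 with 1 array left out. The falls were led by the glycosyltransferase Ugt3a1 (log2 change -1.30 ± 0.16, adjusted p = 0.00604). Gsta1, a glutathione transferase of the alpha class, read 7.92, 8.48 and 7.42 on the T3 arrays and 10.45, 10.69 and 12.13 on the siRNA arrays, highest on siRNA array 3, an 8.88-fold rise (log2 change 3.15 ± 0.46, adjusted p = 0.00999), and Gsta2 rose 8.58-fold (log2 change 3.10 ± 0.45, adjusted p = 0.00965). Since these are near-identical paralogues, their probes may read each other's transcript and the 2 rises may be 1. Of 12 tested genes of female-biased expression 3 fell, Acot3, Cyp2a4 and Cyp17a1, with a median of -1.16. That count of 3 was 4, 0, 1, 0, 1 and 1 with 1 array left out, and with no filter on dim probes, which brings the list to 25 genes, the median was -0.06. Of 23 male-biased genes 1 rose and 1 fell, 4.35% each, beside 8.00% and 4.11% of all genes. The calls of Ces1f, Ces1e, Ugt3a1, Gsta1 and Gsta2 held with any 1 array left out. Ces2a lost its call without siRNA 3, Ces1d without T3 1, siRNA 1 or siRNA 3, and Cyp2a4 without T3 2, T3 3, siRNA 1 or siRNA 3, at an adjusted p of up to 0.0906.

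Of 19 general hepatocyte markers 3 fell, Cebpb, Hpd and Ass1, and 0 rose, and the median was -0.07 (-0.17 to -0.05 with 1 array left out). Their summed linear signal ran from 400776 to 408049 on the T3 arrays and from 375322 to 383087 on the siRNA arrays, so the siRNA arrays lay below without overlap. The part of hepatocyte number in the metabolic falls was not tested. Cebpb lost its call without T3 3, siRNA 2 or siRNA 3, Hpd without T3 1, T3 3, siRNA 1 or siRNA 3, and Ass1 without any 1 array, at an adjusted p of up to 0.141.

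**Figure D2:**
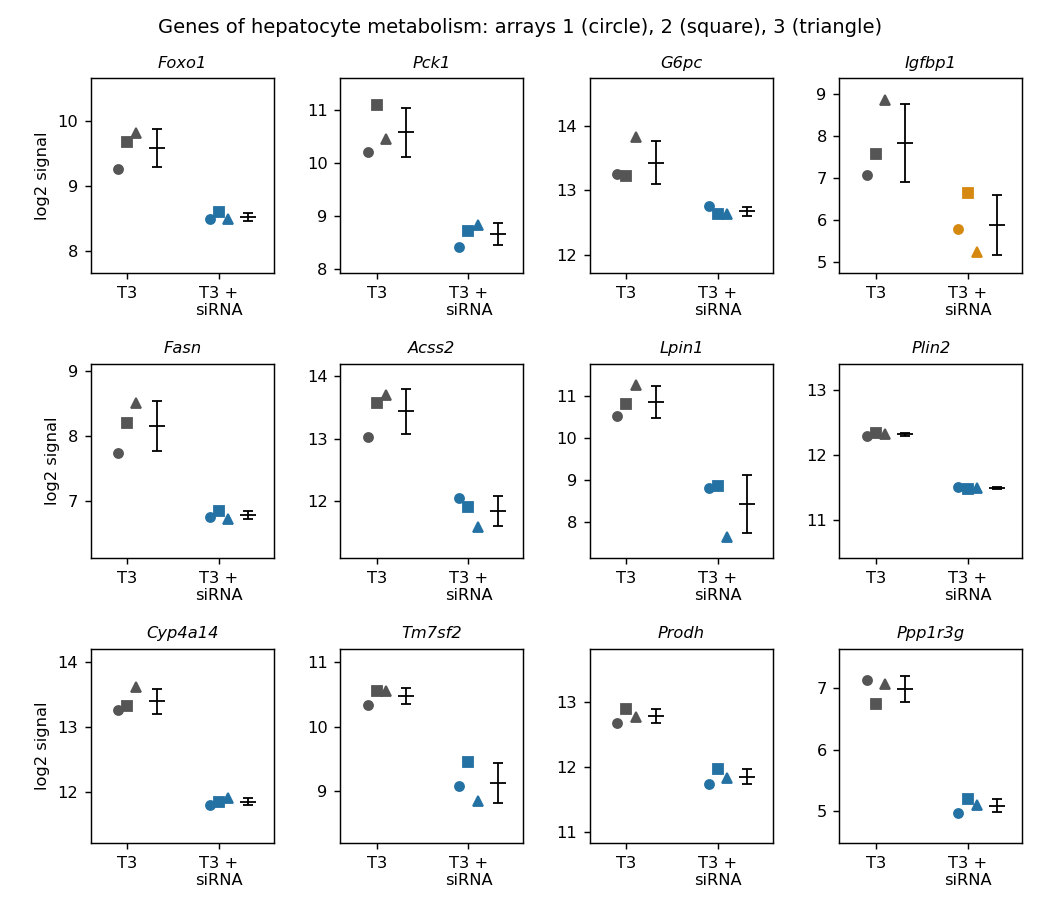
Normalised log2 signal of 12 genes on each array of the T3 group (grey) and of the siRNA group (blue where the gene fell, orange for Igfbp1, which was not called). Circles, squares and triangles are arrays 1, 2 and 3, and the bar beside them is the mean with its SD (n = 3). The siRNA arrays lie below the T3 arrays in all 12 panels, with the widest spread for Igfbp1.

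**Figure D3:**
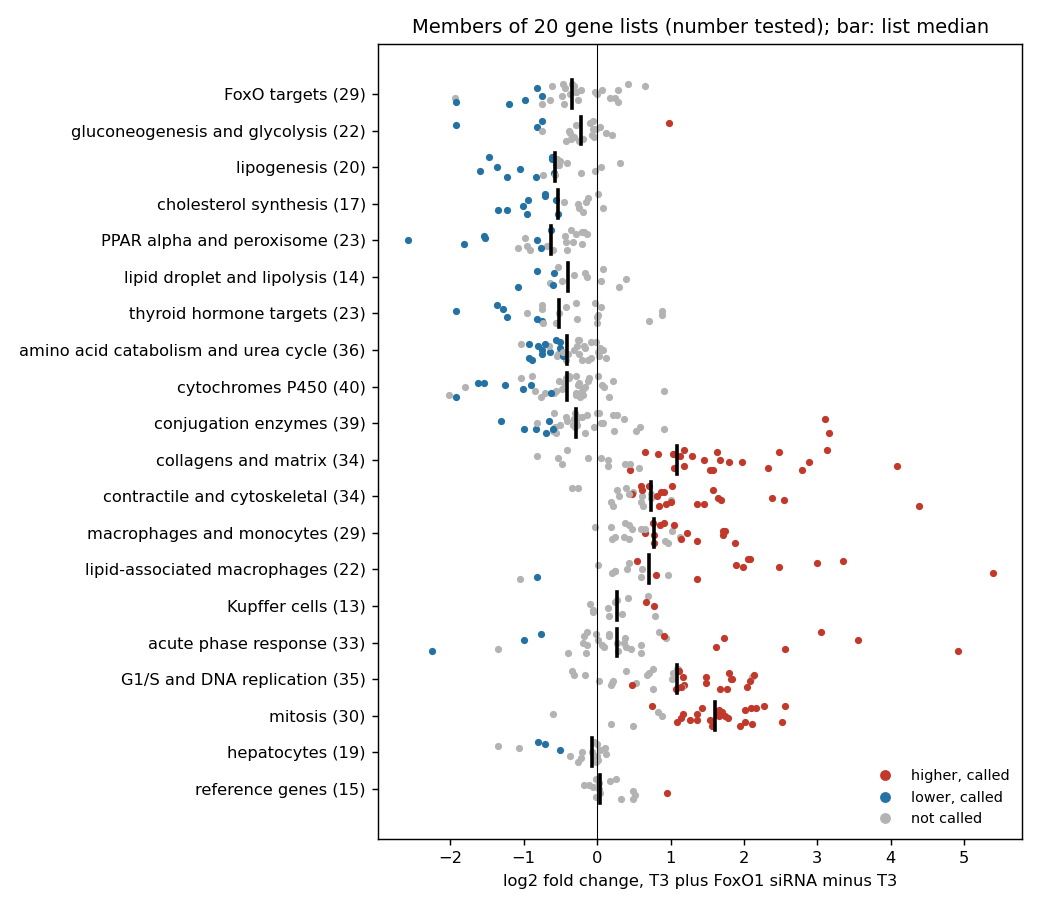
Log2 fold change (siRNA group minus T3 group) of every tested member of 20 gene lists. Each point is a gene, red where it rose, blue where it fell and grey where it was not called, and the black bar is the list median. Medians run from -0.63 for PPAR alpha and peroxisome to 1.61 for mitosis, while hepatocyte markers and reference genes sit near 0.

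Of 34 tested genes of collagens and matrix 23 rose, 0 fell and 11 were not called, and the median was 1.09. No T3 array detected 5 of the 34. Col1a1, a chain of type I collagen, read 5.18, 5.76 and 4.87 on the T3 arrays and 9.50, 9.17 and 9.38 on the siRNA arrays, detected on 1 T3 array and on all siRNA arrays, a 16.9-fold rise (log2 change 4.08 ± 0.23, adjusted p = 0.000829). Serpinh1, the chaperone that folds collagen, read 9.80, 9.82 and 10.08 on the T3 arrays and 12.22, 12.12 and 12.33 on the siRNA arrays, a 5.00-fold rise (log2 change 2.32 ± 0.13, adjusted p = 0.000829). Tnc, the tenascin of wounded matrix, read 5.17, 5.33 and 5.35 on the T3 arrays and 7.92, 8.27 and 8.01 on the siRNA arrays, was not detected with T3 and was at least 5.62-fold higher (log2 change 2.79 ± 0.14, adjusted p = 0.000829), with other probes at 2.78 and -0.52. Lox, which cross-links collagen, was not detected with T3 either and was at least 4.83-fold higher (log2 change 2.88 ± 0.21, adjusted p = 0.00163). Col8a1, also detected on 1 T3 array, rose 8.78-fold (log2 change 3.13 ± 0.21, adjusted p = 0.00163), Col5a1 3.92-fold, Col3a1 3.19-fold and Col1a2 5.56-fold, while the basement membrane chain Col4a2 rose 2.07-fold (log2 change 1.05 ± 0.10, adjusted p = 0.00373). The count of 23 was 17, 18, 21, 17, 17 and 17 with 1 array left out. The calls of Col1a1, Serpinh1, Col8a1, Col5a1, Col3a1, Col1a2 and Col4a2 held with any 1 array left out. Lox and Tnc held their calls in the fits that tested them. Without an siRNA array the Tnc probe read above was not tested, and only another of its probes could be.

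Of 13 tested proteases of the matrix and their inhibitors 7 rose and 0 fell (median 0.73). No T3 array detected 3 of the 13. The collagenase Mmp13 read 6.06, 6.10 and 6.04 on the T3 arrays and 9.34, 8.33 and 9.48 on the siRNA arrays, a 7.89-fold rise (log2 change 2.98 ± 0.29, adjusted p = 0.00330). Mmp12, the macrophage elastase, read 4.87, 4.97 and 5.06 on the T3 arrays and 6.90, 8.75 and 9.31 on the siRNA arrays, lower on siRNA array 1 than on the other two, and was at least 6.69-fold higher (log2 change 3.35 ± 0.55, adjusted p = 0.0144). The inhibitor Timp1 read 4.98, 5.09 and 5.39 on the T3 arrays and 7.08, 7.65 and 8.11 on the siRNA arrays and was at least 4.10-fold higher (log2 change 2.46 ± 0.26, adjusted p = 0.00442), and Plat, the tissue plasminogen activator, at least 1.91-fold (log2 change 1.68 ± 0.12, adjusted p = 0.00163). Mmp2, the gelatinase of stellate cells, gave 0.29 ± 0.18 with no call (adjusted p = 0.323). The count of 7 was 5, 6, 5, 3, 4 and 2 with 1 array left out. Without siRNA 2 the list median was 0.47. The call of Mmp13 held with any 1 array left out. Mmp12, Timp1 and Plat held their calls in the fits that tested them.

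Of 34 tested contractile and cytoskeletal genes 19 rose, 0 fell and 15 were not called, and the siRNA arrays lay entirely above the T3 arrays for 29 (median 0.74). No T3 array detected 2 of the 34. Acta2, the smooth muscle actin of activated stellate cells, read 8.78, 7.86 and 7.28 on the T3 arrays and 12.41, 12.30 and 12.37 on the siRNA arrays. The T3 arrays spread over more than 1 log2 unit and the siRNA arrays over about 0.1, and the rise was 20.9-fold (log2 change 4.39 ± 0.34, adjusted p = 0.00170), with 2.16 to 3.55 on 3 other probes. Vim, the intermediate filament vimentin, rose 5.23-fold (log2 change 2.39 ± 0.20, adjusted p = 0.00219), the tropomyosin Tpm2 3.21-fold (log2 change 1.68 ± 0.16, adjusted p = 0.00340) and the actin-binding protein Tagln2 2.97-fold (log2 change 1.57 ± 0.16, adjusted p = 0.00371). Tagln and Actg2, proteins of smooth muscle, were not detected with T3 and were at least 1.86-fold and 3.91-fold higher. The count of 19 was 14, 15, 14, 16, 11 and 11 with 1 array left out. The calls of Acta2, Vim, Tpm2 and Tagln2 held with any 1 array left out. Tagln and Actg2 held their calls in the fits that tested them.

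Genes of this kind are often driven through CArG boxes, the sites of serum response factor. A CArG box stood in 5 of the 28 contractile and cytoskeletal genes with a RefSeq window (17.9%), Cnn2, Fhl2, Myl6, Myl9 and Vcl, beside 1.70% of all tested genes with a window, 2.54% of those that rose and 0.901% of those that fell. Of the 5 genes Myl9 and Vcl rose, and Cnn2, Fhl2 and Myl6 were not called. The call of Myl9 held with any 1 array left out. Vcl lost its call without any 1 array, at an adjusted p of up to 0.0727. Acta2, with the largest rise of the list, held no match in its window. Only the strict form was searched, CC and GG around a core of A and T alone. A window without a match thus says nothing of CArG boxes with other letters. The list was chosen with earlier results known, so its share describes it and tests nothing.

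Markers of stellate cells moved both ways. Of 24 markers of stellate cells and fibroblasts 10 rose and 2 fell (median 0.36), and the count of 10 was 9, 9, 9, 7, 8 and 7 with 1 array left out. No T3 array detected 2 of the 24. Without siRNA 1 the list median was 0.14 and without siRNA 2 0.17. S100a6, a calcium-binding protein, read 7.47, 7.64 and 7.11 on the T3 arrays and 10.35, 9.89 and 10.66 on the siRNA arrays, a 7.44-fold rise (log2 change 2.89 ± 0.23, adjusted p = 0.00171). Ecm1, a matrix protein that restrains the activation of transforming growth factor beta, read 11.84, 12.09 and 11.94 on the T3 arrays and 10.11, 10.80 and 9.70 on the siRNA arrays and fell 3.37-fold (log2 change -1.75 ± 0.26, adjusted p = 0.0109). Colec11, a collectin, fell 2.70-fold (log2 change -1.43 ± 0.30, adjusted p = 0.0293), and the related Colec10, a marker of quiescent stellate cells counted here with the complement genes, read 7.93, 7.86 and 8.07 on the T3 arrays and 6.03, 6.06 and 5.47 on the siRNA arrays, a 4.29-fold fall (log2 change -2.10 ± 0.18, adjusted p = 0.00227). Dcn, the proteoglycan decorin, gave -0.53 ± 0.17 with no call (adjusted p = 0.0823). The summed signal of the 24 markers ran from 23560 to 25030 on the T3 arrays and from 24009 to 28176 on the siRNA arrays, with overlap, and the part of stellate cell number in the rises was not tested. In the pathway of transforming growth factor beta 5 of 18 genes rose and 1, Ltbp4, fell. The ligand gene Tgfb1 read 7.40, 7.47 and 7.43 on the T3 arrays and 7.92, 7.90 and 8.00 on the siRNA arrays (log2 change 0.51 ± 0.11, adjusted p = 0.0274), and the count of 5 was 2, 3, 1, 0, 1 and 0 with 1 array left out. The calls of S100a6, Ecm1 and Colec10 held with any 1 array left out. Colec11 lost its call without T3 1, T3 2, T3 3 or siRNA 1, Ltbp4 without any 1 array except siRNA 2, and Tgfb1 without any 1 array except T3 2, at an adjusted p of up to 0.0834.

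Of 29 tested markers of macrophages and monocytes 14 rose, 0 fell and 15 were not called, 28 had a positive change, and the median was 0.78. Laptm5, a lysosomal protein of blood cells, read 11.35, 11.34 and 11.23 on the T3 arrays and 12.73, 12.42 and 12.87 on the siRNA arrays (log2 change 1.36 ± 0.14, adjusted p = 0.00442). Clec7a, the receptor dectin-1, read 7.69, 8.37 and 8.00 on the T3 arrays and 10.01, 9.55 and 10.15 on the siRNA arrays, a 3.68-fold rise (log2 change 1.88 ± 0.22, adjusted p = 0.00538). Cx3cr1, the fractalkine receptor of monocytes, was detected on 1 T3 array and rose 3.35-fold (log2 change 1.75 ± 0.22, adjusted p = 0.00603), and the lectin Clec4n 3.27-fold (log2 change 1.71 ± 0.22, adjusted p = 0.00630). Adgre1, which encodes the F4/80 antigen, read 9.72, 10.10 and 9.77 on the T3 arrays and 10.84, 10.39 and 10.67 on the siRNA arrays, a smaller rise of 1.71-fold (log2 change 0.77 ± 0.16, adjusted p = 0.0304). The count of 14 was 7, 12, 5, 6, 13 and 5 with 1 array left out. The summed signal of the 29 markers ran from 25448 to 31082 on the T3 arrays and from 38840 to 57022 on the siRNA arrays, with siRNA array 3 highest, and Cd68, Ccr2 and Itgam were not tested. More RNA per macrophage and more macrophages cannot be told apart. The calls of Laptm5, Clec7a, Cx3cr1 and Clec4n held with any 1 array left out. Adgre1 lost its call without T3 1, T3 3, siRNA 1 or siRNA 3, at an adjusted p of up to 0.0914.

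Genes of lipid-associated macrophages, the macrophages that gather around dying or fat-laden cells, included some of the largest rises of all. Of 22 tested 11 rose and 1 fell (median 0.70), and 3 of the 22 were not detected on any T3 array. Trem2, the lipid-sensing receptor that marks these cells, read 4.97, 5.53 and 4.76 on the T3 arrays and 7.59, 8.01 and 8.63 on the siRNA arrays, detected on 1 T3 array, a 7.94-fold rise (log2 change 2.99 ± 0.30, adjusted p = 0.00373). Cd63, a tetraspanin of late endosomes, read 9.44, 8.95 and 9.47 on the T3 arrays and 11.77, 11.50 and 12.03 on the siRNA arrays (log2 change 2.48 ± 0.20, adjusted p = 0.00171). The galectins Lgals1 and Lgals3 rose 4.24-fold and 3.94-fold, the actin-capping protein Capg 4.17-fold and the annexin Anxa2 3.70-fold. Which cells made these transcripts cannot be told from whole-liver RNA. The 1 fall was Plin2, which hepatocytes also express, and Lpl, the lipoprotein lipase, rose 1.75-fold (log2 change 0.80 ± 0.19, adjusted p = 0.0406). Spp1, Cd36 and Fabp4 were not tested. The count of 11 was 9, 10, 9, 6, 7 and 6 with 1 array left out. The calls of Trem2, Cd63, Lgals1, Lgals3, Capg and Anxa2 held with any 1 array left out. Lpl lost its call without any 1 array except T3 2, at an adjusted p of up to 0.121.

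Of 13 Kupffer cell markers 2 rose and 0 fell (median 0.27), and no more than 1 rose with any 1 array left out. The complement receptor Vsig4 read 11.50, 11.53 and 11.49 on the T3 arrays and 12.25, 12.01 and 12.28 on the siRNA arrays, where the T3 arrays agreed within 0.05 (log2 change 0.67 ± 0.12, adjusted p = 0.0180). Clec4f, a lectin that in mouse liver only Kupffer cells make, read 10.46, 10.50 and 10.38 on the T3 arrays and 10.26, 10.62 and 10.17 on the siRNA arrays, with overlapping groups (log2 change -0.10 ± 0.15, adjusted p = 0.690), and Timd4 gave 0.16 ± 0.15 (adjusted p = 0.514). The summed signal of the Kupffer list ran from 29038 to 37251 on the T3 arrays and from 35333 to 39502 on the siRNA arrays, with overlap. All 3 chains of C1q, the first complement component, which macrophages make, rose: C1qa 1.82-fold, C1qb 1.58-fold and C1qc 1.79-fold. The other 22 tested complement genes held no rise. C1qa lost its call without T3 1, T3 3 or siRNA 3, Vsig4 and C1qc without T3 1, T3 3, siRNA 1 or siRNA 3, and C1qb without any 1 array except siRNA 2, at an adjusted p of up to 0.0927.

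The acute phase response was uneven. Of 33 tested genes 7 rose and 3 fell (median 0.27). Lcn2, the iron-sequestering lipocalin 2, read 7.00, 8.43 and 8.34 on the T3 arrays and 11.88, 12.73 and 13.88 on the siRNA arrays, a 30.1-fold rise (log2 change 4.91 ± 0.56, adjusted p = 0.00498). Among the 20 largest rises it was the largest of a gene detected on every array. The serum amyloid A gene Saa1 read 11.98, 12.12 and 12.15 on the T3 arrays and 14.16, 15.74 and 15.51 on the siRNA arrays, an 8.29-fold rise (log2 change 3.05 ± 0.38, adjusted p = 0.00617), and Saa2 read 6.89, 6.59 and 6.73 on the T3 arrays and 8.76, 11.20 and 10.91 on the siRNA arrays, 11.8-fold higher (log2 change 3.56 ± 0.58, adjusted p = 0.0141). In both, and in Saa3 (log2 change 2.56 ± 0.60, adjusted p = 0.0388), siRNA array 1 was the lowest of the siRNA arrays by over 1 log2 unit. Saa1 and Saa2 are close copies and their probes may share signal. Orm2, an orosomucoid, read 11.82, 11.78 and 11.96 on the T3 arrays and 13.23, 13.65 and 13.54 on the siRNA arrays (log2 change 1.62 ± 0.14, adjusted p = 0.00244), and Cd14, the coreceptor for endotoxin, 6.38, 6.68 and 6.77 on the T3 arrays and 8.08, 8.69 and 8.26 on the siRNA arrays (log2 change 1.73 ± 0.19, adjusted p = 0.00450). Haptoglobin, Hp, gave 0.16 ± 0.10 (adjusted p = 0.350) near the top of the scale, and 2 dimmer probes of it 0.86 and 0.88.

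Hamp2, a hepcidin gene, read 13.10, 13.93 and 13.51 on the T3 arrays and 11.02, 11.40 and 11.37 on the siRNA arrays, a 4.77-fold fall (log2 change -2.25 ± 0.22, adjusted p = 0.00373). Il6ra, the receptor for interleukin 6, and the constitutive Saa4 fell, with log2 changes of -0.99 and -0.76, and of 12 negative acute phase genes 1 fell, Serpina6, the corticosteroid-binding globulin (log2 change -0.79 ± 0.13, adjusted p = 0.0153). Of 24 genes of iron and heme 2 rose and 1 fell. Beside the rise of Lcn2 and the fall of Hamp2, the transferrin receptor Tfrc rose 1.94-fold (log2 change 0.95 ± 0.19, adjusted p = 0.0261). The acute phase count of 7 was 6, 6, 7, 7, 6 and 4 with 1 array left out. The calls of Lcn2, Saa1, Orm2, Cd14 and Hamp2 held with any 1 array left out. Saa2 lost its call without siRNA 3, Serpina6 without T3 3, Il6ra without T3 1 or siRNA 3, and Tfrc without T3 1, siRNA 2 or siRNA 3. Saa3 lost its call without any 1 array except siRNA 1, and Saa4 without any 1 array except T3 1, at an adjusted p of up to 0.121.

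**Figure D4:**
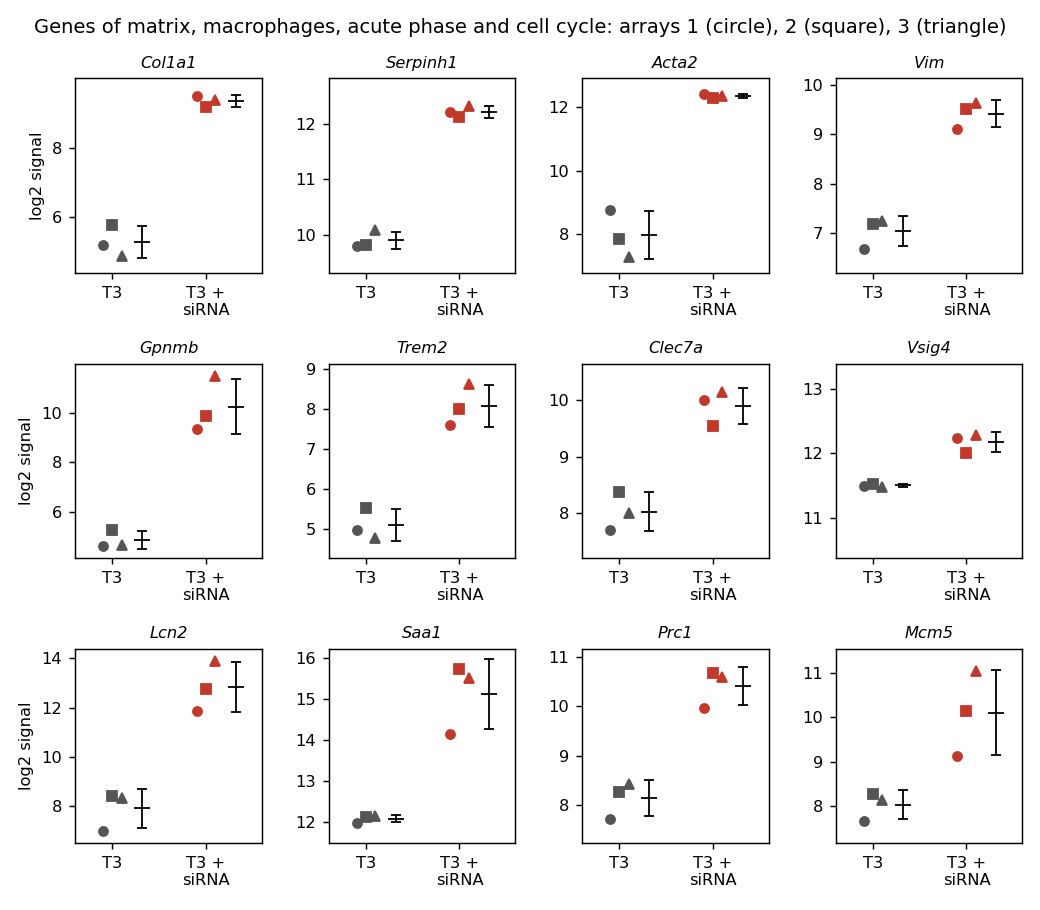
Normalised log2 signal of 12 genes that rose, on each T3 array (grey) and each siRNA array (red). Circles, squares and triangles are arrays 1, 2 and 3, and the bar beside them is the mean with its SD (n = 3). Col1a1, Serpinh1 and Acta2 differ little among the siRNA arrays, while Saa1 is lowest on array 1 and Gpnmb, Lcn2 and Mcm5 are highest on array 3.

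Genes of mitosis had the highest median of the 69 lists. Of 30 tested genes of mitosis 25 rose and 0 fell, the siRNA arrays lay entirely above the T3 arrays for 28, and the median was 1.61. The array held 47 listed genes, and 4 of the 30 tested were not detected on any T3 array. Prc1, which bundles microtubules in the midzone of the dividing cell, read 7.73, 8.26 and 8.43 on the T3 arrays and 9.97, 10.67 and 10.59 on the siRNA arrays, a 4.83-fold rise (log2 change 2.27 ± 0.25, adjusted p = 0.00444). Cdk1, the kinase that drives entry into mitosis, read 6.32, 6.79 and 7.08 on the T3 arrays and 8.26, 8.77 and 9.21 on the siRNA arrays (log2 change 2.01 ± 0.28, adjusted p = 0.00871), and Birc5, the survivin of the chromosomal passenger complex, 6.18, 6.58 and 7.54 on the T3 arrays and 8.77, 9.26 and 9.94 on the siRNA arrays (log2 change 2.55 ± 0.40, adjusted p = 0.0128). Top2a, which untangles chromosomes and was detected on 2 T3 arrays, rose 4.27-fold (log2 change 2.10 ± 0.39, adjusted p = 0.0192), and the mitotic kinases Aurka and Plk1 3.14-fold and 2.89-fold. The count of 25 was 22, 21, 21, 22, 16 and 15 with 1 array left out. The calls of Prc1, Cdk1, Birc5 and Aurka held with any 1 array left out. Top2a lost its call without T3 3, siRNA 2 or siRNA 3, and Plk1 without T3 1, T3 2, siRNA 2 or siRNA 3, at an adjusted p of up to 0.120.

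Genes of the G1/S transition and DNA replication differed between the siRNA arrays. Of 35 tested 16 rose and 0 fell (median 1.08), and 3 of the 35 were not detected on any T3 array. The median over these genes, counted from the T3 mean, was 0.51 on siRNA 1, 0.97 on siRNA 2 and 1.68 on siRNA 3, against 1.16, 1.73 and 1.84 for mitosis. Mcm5, a subunit of the replicative helicase, read 7.67, 8.28 and 8.15 on the T3 arrays and 9.13, 10.15 and 11.04 on the siRNA arrays (log2 change 2.08 ± 0.44, adjusted p = 0.0304), and its partner Mcm6 7.74, 8.18 and 8.26 on the T3 arrays and 9.31, 9.66 and 10.50 on the siRNA arrays (log2 change 1.76 ± 0.30, adjusted p = 0.0159). Cdt1, which loads the helicase, and the factor E2f1 showed the same order of siRNA arrays, with changes of 1.83 ± 0.39 and 1.68 ± 0.38. Ccnd1, the cyclin D1 of the G1 phase, read 12.22, 12.40 and 12.47 on the T3 arrays and 12.96, 13.45 and 13.91 on the siRNA arrays (log2 change 1.08 ± 0.23, adjusted p = 0.0317). The count of 16 was 3, 3, 3, 19, 2 and 6 with 1 array left out, fewest without siRNA 2 and most without siRNA 1. The call of Mcm6 held with any 1 array left out. Cdt1 and E2f1 lost their calls without T3 1, T3 2, T3 3 or siRNA 2, and Mcm5 and Ccnd1 without any 1 array except siRNA 1, at an adjusted p of up to 0.0937.

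**Figure D5:**
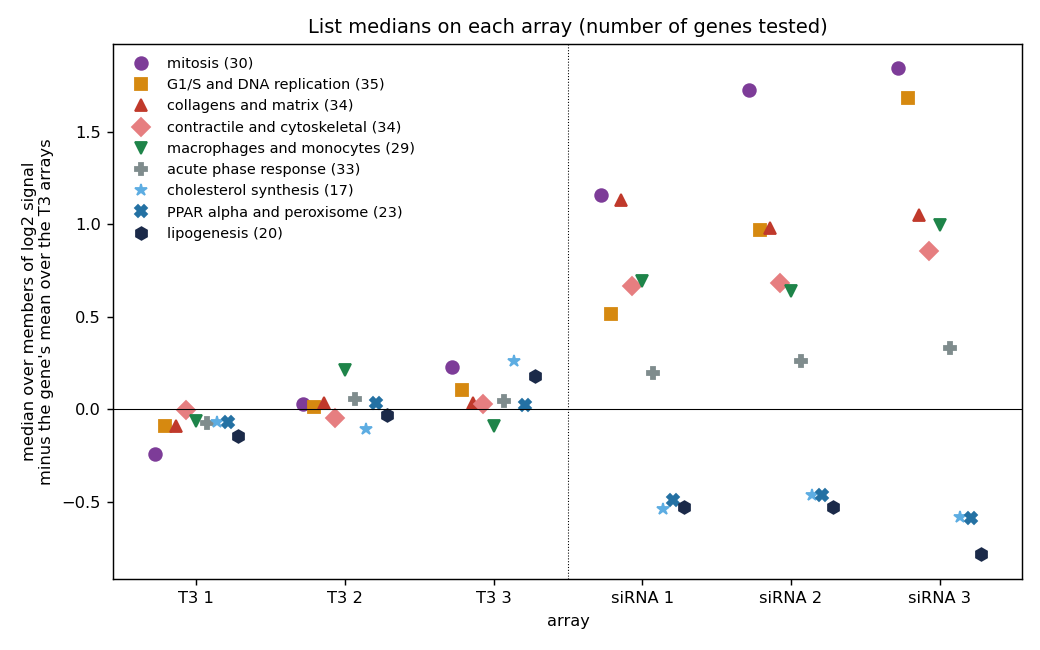
Median over the members of 9 gene lists of the log2 signal on each array minus the gene's mean over the T3 arrays. Each symbol is a list, with its number of tested genes in the legend. G1/S genes step from 0.51 on siRNA 1 to 1.68 on siRNA 3, whereas collagens, PPAR alpha targets and cholesterol genes differ less between the siRNA arrays.

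Many genes of late cell cycle carry a cell cycle genes homology region (CHR) close to their start, a site bound by the MuvB complexes that repress or activate them. Its letters TTTGAA on either strand stood in 20 of the 25 tested mitosis genes with a RefSeq window (80.0%), in 19 of them from 50 bases before the start onward (76.0%). Over all tested genes with a window the shares were 14.7% and 3.76%, and in the G1/S list 4 of 29 held the letters (13.8%), 1 of them that close to the start. The shares were 17.7% and 8.08% over genes that rose, and 18.6% and 5.41% over those that fell. The windows of Prc1, Cdk1, Top2a and Plk1 are printed because these genes rose and hold the letters, which are in capitals.
Prc1 promoter, chr7:80294201-80294500, plus strand: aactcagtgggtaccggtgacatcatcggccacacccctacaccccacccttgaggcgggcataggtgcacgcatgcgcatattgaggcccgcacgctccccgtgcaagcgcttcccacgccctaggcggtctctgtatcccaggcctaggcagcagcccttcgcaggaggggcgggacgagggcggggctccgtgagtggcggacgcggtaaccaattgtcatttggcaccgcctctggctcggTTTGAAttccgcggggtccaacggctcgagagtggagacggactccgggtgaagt
Cdk1 promoter, chr10:69352863-69353162, minus strand: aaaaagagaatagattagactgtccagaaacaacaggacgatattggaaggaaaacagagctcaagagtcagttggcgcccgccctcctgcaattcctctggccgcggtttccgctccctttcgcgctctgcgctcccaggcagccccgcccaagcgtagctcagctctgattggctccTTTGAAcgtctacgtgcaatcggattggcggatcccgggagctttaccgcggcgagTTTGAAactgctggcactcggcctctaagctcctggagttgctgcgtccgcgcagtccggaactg
Top2a promoter, chr11:99024140-99024439, minus strand: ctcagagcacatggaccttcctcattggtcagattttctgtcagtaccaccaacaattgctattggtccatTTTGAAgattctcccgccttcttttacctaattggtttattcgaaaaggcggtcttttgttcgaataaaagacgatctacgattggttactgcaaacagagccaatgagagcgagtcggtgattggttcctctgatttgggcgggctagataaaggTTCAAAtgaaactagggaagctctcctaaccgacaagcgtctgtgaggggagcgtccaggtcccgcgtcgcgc
Plk1 promoter, chr7:122159185-122159484, plus strand: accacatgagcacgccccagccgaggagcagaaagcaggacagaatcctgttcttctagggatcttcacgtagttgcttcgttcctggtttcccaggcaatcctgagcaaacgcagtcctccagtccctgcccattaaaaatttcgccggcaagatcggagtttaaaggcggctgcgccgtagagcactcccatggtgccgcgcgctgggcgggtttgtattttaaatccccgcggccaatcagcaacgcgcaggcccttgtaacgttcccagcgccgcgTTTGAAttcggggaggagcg
The letters began 5 bases before the start in Prc1, at 71 and 15 bases before it in Cdk1, at 179 and 23 before it in Top2a and at base 31 after it in Plk1. Since mitotic genes were listed for their function with earlier results known, these shares describe the list and test nothing.

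Markers of bile duct cells and progenitors rose in part. Of 10 tested 5 rose and 0 fell (median 0.78), while the array held 18 listed genes. In the alternatives other than leaving out an array the list median ran from 0.15 to 0.86. Sox9, a factor of duct cells and of hepatocytes under injury, read 8.58, 8.41 and 8.56 on the T3 arrays and 9.26, 9.39 and 9.46 on the siRNA arrays (log2 change 0.85 ± 0.12, adjusted p = 0.00849), and the keratins Krt8 and Krt18, which hepatocytes also make, rose 2.21-fold and 1.75-fold. Krt7, a keratin of duct cells, was not detected with T3 and was at least 1.22-fold higher (log2 change 0.75 ± 0.11, adjusted p = 0.0111). The summed signal of the 10 genes ran from 7373 to 9057 on the T3 arrays and from 12862 to 18071 on the siRNA arrays, without overlap, while Epcam and Krt19 were not tested. The count of 5 was 3, 5, 3, 3, 3 and 2 with 1 array left out. The calls of Sox9 and Krt8 held with any 1 array left out. Krt7 held its call in the fits that tested it. Krt18 lost its call without any 1 array except siRNA 1, at an adjusted p of up to 0.0797.

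The summed signals of several other marker lists also stood apart. They ran from 1123 to 1236 on the T3 arrays and from 1422 to 2399 on the siRNA arrays for 8 neutrophil markers, and from 2721 to 3046 on the T3 arrays and from 3383 to 4555 on the siRNA arrays for 9 lymphocyte markers. For 8 erythroid markers they ran from 20457 to 22171 on the T3 arrays and from 24551 to 29851 on the siRNA arrays, and for 4 muscle markers from 359 to 369 on the T3 arrays and from 644 to 756 on the siRNA arrays, of which Actg2 and Smtn rose. The siRNA arrays lay above the T3 arrays in all 4 of these lists, and below them for 3 pancreas markers, which ran from 17975 to 19021 on the T3 arrays and from 12735 to 15565 on the siRNA arrays, with 0 calls by limma and 2 unadjusted p under 0.05. Sums overlapped for 23 endothelial (from 24306 to 27071 on the T3 arrays and from 26522 to 28697 on the siRNA arrays), 5 adipocyte (from 9326 to 10822 on the T3 arrays and from 9959 to 10775 on the siRNA arrays) and 3 mesothelial markers (from 138 to 249 on the T3 arrays and from 195 to 362 on the siRNA arrays), where Lpl was the 1 call in the last 2. Their part in the results above was not tested. Actg2 held its call in the fits that tested it. Smtn and Lpl lost their calls without any 1 array except T3 2, at an adjusted p of up to 0.121.

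Most markers in these lists were not called. Of 23 endothelial markers 2 rose, Egfl7 and Emcn, and 1 fell, Dnase1l3 (median 0.20). Those shares, 8.7% and 4.35%, were near the 8.00% and 4.11% of all genes. Of 19 neutrophil markers 8 could be tested, and of these Prtn3, the proteinase 3 of granules, detected on 1 T3 array, rose 3.73-fold (log2 change 1.90 ± 0.13, adjusted p = 0.00163). Of 9 tested lymphocyte markers 0 passed in limma, 1 had an unadjusted p under 0.05, and the median was 0.10 (-0.04 to 0.18 with 1 array left out). Ly6g, Mpo and Elane of neutrophils and Cd3e of lymphocytes were not tested. Among 8 erythroid markers Slc4a1, the anion exchanger of red cells, Tfrc and Hbb-b2, a globin not detected with T3, rose, a count of 3 that was 1, 2, 2, 2, 1 and 1 with 1 array left out, whereas the bright globin Hba-a1 gave 0.30 ± 0.13 (adjusted p = 0.184). Of 15 reference genes only Tfrc passed, and the median was 0.04 (0.05 to 0.17 with 1 array left out). Of 23 ribosomal protein genes 19 had siRNA arrays entirely above the T3 arrays, beside 21.4% of all genes. The median was 0.32, but 2 passed, Rpl3 and Rps19, and neither did with any 1 array left out. Of 30 interferon response genes 2 rose (6.67%) and 1 fell (3.33%), likewise near the shares of all genes. Their median was 0.04, and -0.02 to 0.06 with 1 array left out. Of 23 genes of p53 and growth arrest 1 rose, Phlda3, a p53 target that restrains Akt and was detected on 1 T3 array (log2 change 1.70 ± 0.21, adjusted p = 0.00613), and 1 fell, Ccng2. The calls of Prtn3, Slc4a1 and Phlda3 held with any 1 array left out. Tfrc lost its call without T3 1, siRNA 2 or siRNA 3, and Emcn without any 1 array except T3 2. Egfl7 and Dnase1l3 lost theirs without any 1 array, at an adjusted p of up to 0.106. Hbb-b2 lost its call in every fit that tested it, those without T3 1, T3 2 or T3 3. Of the 10 alternatives of other kinds that tested Hbb-b2, 3 kept its call.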

How the data were processed

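Whole-liver RNA was read on Illumina mouse bead arrays. The main deposited file holds, per the file headers, a probe's signal intensity on each array with its detection p-value, not normalized between arrays. Another deposited file holds intensities that, from their values, the authors had quantile-normalized over 9 arrays; it served as an alternative. Partek 6.6 is named without a step, per the submitters' processing notes, and the scanner export is not given in the sources used here.

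Background was corrected and arrays quantile-normalized with neqc in limma 3.58.1 (R 4.3.3, data.table version 1.17.8), with an offset of 16 and 936 negative controls whose level was estimated through the detection p-values. Probes detected on at least 3 of the 6 arrays (detection p under 0.05) were fitted with lmFit and eBayes, siRNA against T3, with Benjamini-Hochberg adjustment over all 17482 of them and a threshold of 0.05. Arrays were matched to groups by their titles. A gene is its brightest detected probe, named through the platform annotation: 34885 probes carry 1 symbol, 18 several and 10378 none. Near-identical paralogues may share signal, since probe sequences were not used here. Precision is limited by having 3 arrays a group. The fit was tested on simulated data.

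The search for GTAAACA was added after the other values were seen. The text names Foxo1 and other FoxO genes, the 20 largest rises and 20 largest falls among called, named genes whose groups did not overlap and which were detected on all 3 arrays of the higher group, members of 69 gene lists, and 8 chosen genes of thyroid hormone and FoxO1 action (Dio1, Thrsp, Me1, Klf9, Hr, Pck1, G6pc and Igfbp1). The lists and genes were chosen with earlier results of these data known. Motifs were searched on both strands of RefSeq windows, and a gene with several windows counts once if any of them matches. Alternatives were other background corrections, scalings, detection filters, probe summaries and variance settings, all 9 arrays, a replicate block and leaving out each array.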

Additional observations from a re-analysis of the deposited data

How the results depend on the processing

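The fall of Foxo1 on its brighter probe stayed past the threshold in all alternatives, at -1.22 to -0.94 with 1 array left out. Its second probe ran from -0.89 to -0.63 with 1 array left out, and lost its call under median scaling (-0.48), with no filter on dim probes (-0.75) and with a replicate block (-0.75). Genes higher numbered 274 to 546, genes lower 106 to 213, the share of called genes higher 66.9% to 78.3% and called members of the gene lists 122 to 186 with 1 array left out, against 796, 409, 66.1% and 283 with all 6 arrays. Genes lower numbered 664 with no background correction, 672 from the authors' deposited values, 636 with all 9 arrays, 706 with trend and robust eBayes and 128 under median scaling, where 88.9% of called genes were higher. With no filter on dim probes 498 were higher and 205 lower, in a larger table of 19057 genes. Trend and robust eBayes called 438 list members. With the replicate block 503 genes were higher and 183 lower. Same-numbered deviations correlated at -0.043, -0.055 and -0.031, so no pairing by number was visible, though so few arrays cannot exclude one. Apart from what fewer arrays or more tested genes explain by construction, the cause of these differences was not tested.

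Of 169 called genes named in the text, 106 kept their call in all of the 11 alternatives other than leaving out an array that tested them. With 1 array left out, 88 kept it in every fit that tested them, and 0 changed sign in any setting. Under median scaling the list medians of autophagy, growth hormone, coagulation, the integrated stress response, p53 targets, proteasome and selenoproteins changed sign. In that setting 3 genes of amino acid catabolism fell, 5 of fatty acid synthesis, 5 of cholesterol synthesis and 4 of the PPAR alpha list. These counts were 12, 9, 9 and 7 above, and the medians stayed negative. For the respiratory chain and fat oxidation the counts of 3 and 2 became 0, while bile acid synthesis kept its 3. A slide block was not run, since the headers give no slide. Signal over background limits the dim genes: 106 risen genes were undetected on all T3 arrays and 8 fallen genes on all siRNA arrays, so their folds are bounds. The design holds no injected control.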

Other observations

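Among the tested probes 2543 carry no gene symbol in the platform annotation, and 123 of these were higher and 112 lower with the siRNA. Of 397 called genes with at least 1 other detected probe, 353 had every other probe change in the same direction, and 0 had another probe called the opposite way.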
